A study of Macaca mulatta with 136 samples.

Results

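The neural retina and the RPE/choroid of the same macaque eyes did not change alike between the fovea and the perimacula. The retina is the light-sensing nerve tissue, and the RPE/choroid is the pigment epithelium that serves the photoreceptors together with the vascular layer behind it. The measurement described here is an interaction of tissue and location. For each gene it is the log2 difference between fovea and perimacula in retina minus the same difference in RPE/choroid. A positive value means that the gene leaned more toward the fovea in retina than in RPE/choroid, and a negative value means the reverse. It used 16 of the 32 libraries of the series, namely the 4 groups Retina fovea, Retina perimacula, RPE-Choroid fovea and RPE-Choroid perimacula, with 4 libraries each.

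All groups came from punches 2 mm across, taken from both eyes of 2 adult rhesus macaques, RM03 and RM04, with no treatment or genetic change named in the labels. The fovea punch also holds the macula around the foveal pit, and both tissues of a location are mixtures of cell types. Replicates 1 to 4 are the right and left eye of RM03 and then the right and left eye of RM04, and values are given below in that order. Only 2 animals were sampled, so that fellow eyes are not independent animals. Each library was sequenced on 5 lanes of the same 2 flow cells, and its summed estimated counts came to between 42448903 and 66331713. Levels are in CPM, estimated counts scaled to a common library total after TMM normalization. They are not divided by gene length, so that levels are compared here between samples and never between genes.

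At the fovea the retina is crowded with cones and ganglion cells and poor in rods, and rods become dominant further out. Each photoreceptor faces an RPE cell, which takes up shed outer segments and regenerates the visual pigment, while the choroid supplies oxygen and nutrients through a dense capillary bed. In bulk tissue, fewer cells of a type and less RNA per cell cannot be told apart.

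The defining markers followed the tissue labels. The RPE enzyme RPE65 had 51.0 to 102 CPM in the retina libraries and 1558 to 8183 in the RPE/choroid libraries, whereas the rod enzyme PDE6A had 863 to 3928 CPM in retina and 4.05 to 83.4 in RPE/choroid. Libraries of 3 kinds stood apart. The foveal RPE/choroid library of replicate 3 carried more rod RNA than the others, with a summed level over 12 rod genes of 1324 CPM against 416 to 583 in the other 7 RPE/choroid libraries. The perimacular RPE/choroid libraries of replicates 1 and 4 carried Schwann cell RNA, with a sum over 10 genes of 12389.5 and 3301 CPM against 456 to 586 in the other 6. The perimacular retina library of replicate 4 had the lowest rod sum of its group, 18404 CPM against 24713 to 27758. It also had the highest ganglion cell sum of that group, 7394 CPM against 3564 to 5271. Its cone sum was the highest as well, 3874 CPM against 2943 to 3431. The rod-marked library and both Schwann-marked ones are called the 3 marked RPE/choroid libraries below, and some counts are given without them.

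Of 15964 genes tested, 2685 (16.8%) were called by the interaction at an adjusted p under 0.05 (edgeR quasi-likelihood test with Benjamini-Hochberg adjustment). The value was positive for 1443 of them (9.04% of the genes tested) and negative for 1242 (7.78%). In the same fit, 4514 genes (28.3%) were called between fovea and perimacula in retina, and 171 (1.07%) in RPE/choroid. Of those 171, 126 (0.789%) were higher at the fovea. Which sign of the interaction was more frequent depended on the processing. RLE normalization gave 1234 positive and 1472 negative calls, TMM within each tissue 1304 and 1421, and DESeq2 1651 and 1990. With each eye as a block within each tissue, the counts were 3944 for the interaction and 585 for RPE/choroid. Without the Schwann-marked perimacular RPE/choroid libraries of replicates 1 and 4, the interaction called 1696 genes, of which 1582 were among the 2685. Without those and the rod-marked foveal library of replicate 3, it called 1295, of which 1188 were among them. Without the perimacular retina library of replicate 4 it called 3260. No gene called both in one of these fits and with all 16 libraries changed sign. These fits share all or most of their libraries with the main one, so that this is no independent check. The RPE/choroid count itself fell to 74, 77 and 77 without the foveal library of replicate 3 and the perimacular libraries of replicates 1 and 3, rose to 264 and 322 without the perimacular libraries of replicates 2 and 4, and was 102 to 112 without any 1 of the foveal retina libraries of replicates 2, 3 or 4, the perimacular retina library of replicate 2 or the foveal RPE/choroid library of replicate 4.

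For most called genes the larger change was in retina. The retina change was also called for 2257 of the 2685 genes, the RPE/choroid change for 100, and neither for 364. For 407 genes, 15.2% of those called, the change in RPE/choroid was the larger. The median absolute log2 change over all genes tested was 0.30 in retina and 0.15 in RPE/choroid, with median standard errors of 0.16 in each. The fit uses the same spread of a gene for both tissues. These standard errors therefore do not measure the spread within each tissue, and cannot show that the changes were equally precise. The fitted changes had opposite signs for 2105 of the called genes and the same sign for 580. The signs were opposite in each of the 4 eyes for 846 called genes (31.5%), against 1239 of all genes tested (7.76%). Since a gene with opposite signs has a larger interaction, these shares are not independent of the call.

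**Figure D1:**
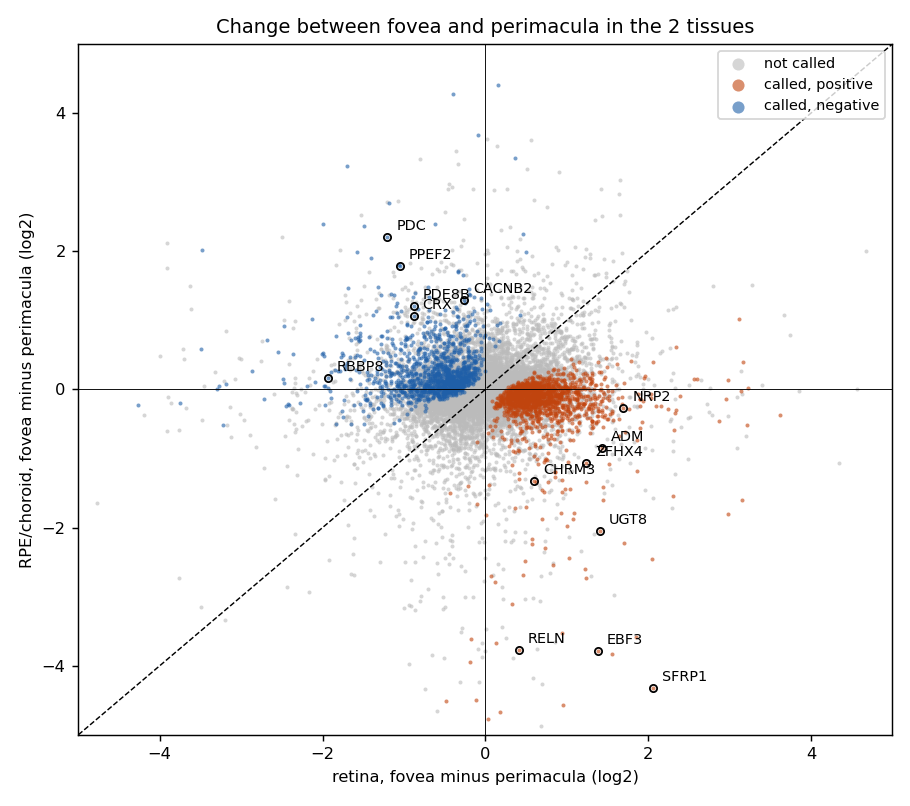
Each point is a gene, with its log2 change from perimacula to fovea in retina on the horizontal axis and in RPE/choroid on the vertical axis, and the dashed line marks equal change. The 2685 called genes lie away from that line, 1443 below it in orange and 1242 above it in blue. Circled genes are named in the text, and 21 genes, 7 of them called, lie outside the axes and are not drawn.

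A smaller set was called 3 times, by the interaction and in each tissue, with opposite signs. It held 36 genes, 11 higher at the foveal retina and the perimacular RPE/choroid and 25 the other way round, and 0 genes were called in all 3 with the same sign in both tissues by edgeR, against 81 at an unadjusted p under 0.05 and 16 by DESeq2. The 35 with a unique symbol stayed called by the interaction when each of the 16 libraries was left out in turn. These fits share most libraries with the one that chose the genes, so that this is no independent check. Without the foveal RPE/choroid library of replicate 3, 17 genes met all 3 calls, 15 of them among the 36. Without the 3 marked RPE/choroid libraries the number was 21, 14 of them among the 36.

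EBF3, a transcription factor of developing and mature ganglion cells, had the largest interaction of these 35 genes. In retina it had 49.0, 57.3, 54.1 and 55.2 CPM at the fovea and 16.9, 18.9, 17.9 and 30.3 at the perimacula. In RPE/choroid it had 0.265, 0.087, 0.708 and 0.416 CPM at the fovea and 4.72, 5.12, 4.34 and 5.68 at the perimacula. Neither pair of groups overlapped, so that EBF3 was high at the fovea in one tissue and nearly undetected at the fovea of the other. The retina change was 2.61-fold upward and the RPE/choroid change 13.9-fold downward, and the interaction was 5.17 on the log2 scale (standard error 0.41, adjusted p = 3.21e-05, edgeR). Without the Schwann-marked and the rod-marked libraries the value was 5.54 (adjusted p = 0.000619).

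CHRM3, a muscarinic acetylcholine receptor, went the same way with a larger change in RPE/choroid. It had 31.6, 29, 31.7 and 30.7 CPM in foveal retina and 21.9, 18.4, 15.7 and 25.1 in perimacular retina. In RPE/choroid the foveal libraries had 25.2, 25.5, 23.7 and 26.3 CPM and the perimacular ones 59.5, 59.3, 89.1 and 45.8. The groups did not overlap in either tissue, and the interaction was 1.93 (standard error 0.24, adjusted p = 0.000396, edgeR). MDGA1, a membrane protein of the nervous system chosen after its values were seen, rose 1.53-fold at the foveal retina and fell 1.76-fold at the foveal RPE/choroid, with an interaction of 1.43 (standard error 0.13, adjusted p = 5.13e-05).

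ZFHX4, a homeobox transcription factor, was called by the interaction and in retina but just missed the threshold in RPE/choroid. It had 150, 126, 140 and 139 CPM in foveal retina against 55.5, 46.2, 42.4 and 89.6 in perimacular retina. The RPE/choroid libraries had 17.3, 22.7, 14.2 and 14.5 CPM at the fovea against 43.3, 41.3, 37.0 and 22.9 at the perimacula. The interaction was 2.31 (standard error 0.34, adjusted p = 0.000879), with an adjusted p of 0.0508 for the RPE/choroid change. ADM, the vasodilator peptide adrenomedullin, had mean levels of 16.8 ± 4.10 CPM at the foveal and 6.21 ± 2.63 at the perimacular retina (SD, n = 4). In RPE/choroid it had 29.8 ± 6.66 CPM at the fovea and 53.8 ± 17.3 at the perimacula, where the left eye of RM04, at 29.2, lay within the foveal range. Its interaction was 2.29 (adjusted p = 0.00419), and it was not called without replicate 3 as a whole. LPIN1, SEPT3, RTKN and UGT8 were the other genes named for opposite changes of this sign, with interactions of 1.40, 1.52, 2.33 and 3.45. In RPE/choroid the highest level of each was in the Schwann-marked perimacular library of replicate 1, with 215 CPM for LPIN1 and 112 to 114 in the other 3 of its group.

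The opposite pattern, lower at the foveal retina and higher at the foveal RPE/choroid, was led by genes such as CRX, PPEF2 and PDE8B. CRX, a transcription factor of photoreceptors that the RPE also expresses at a low level, had 84.3, 98.6, 62.7 and 73.5 CPM in foveal retina and 195, 186, 125 and 90.4 in perimacular retina. Its levels in RPE/choroid were 15.7, 14.6, 17.6 and 16.2 CPM at the fovea and 5.73, 10.2, 6.29 and 8.83 at the perimacula. CRX was lower at the fovea in each retina and higher at the fovea in each RPE/choroid, with an interaction of -1.94 (standard error 0.30, adjusted p = 0.00121, edgeR). Without the 3 marked RPE/choroid libraries the CRX value was -1.78 (adjusted p = 0.00592).

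PPEF2, a phosphatase of photoreceptors, had 102, 104, 119 and 124 CPM in foveal retina and 220, 191, 304 and 218 in perimacular retina. In RPE/choroid it had 15.7, 12.7, 23.3 and 15.9 CPM at the fovea against 4.69, 5.81, 2.98 and 5.86 at the perimacula. The highest of these, 23.3 CPM, was in the rod-marked library. The groups did not overlap in either tissue, and the interaction was -2.83 (standard error 0.29, adjusted p = 0.000106). Without the 3 marked RPE/choroid libraries the PPEF2 value was -2.82 (adjusted p = 0.0019, edgeR). PDE8B, a phosphodiesterase that degrades cyclic AMP, had 9.49, 8.04, 13.3 and 15.4 CPM in foveal and 19.7, 17.7, 24.3 and 21.3 in perimacular retina. Its RPE/choroid levels were 14.8, 17.4, 24.9 and 24.2 CPM at the fovea and 5.85, 8.92, 8.89 and 11.1 at the perimacula. Its interaction was -2.09 (standard error 0.20, adjusted p = 6.8e-05), and the per-eye values lay between -2.38 and -1.59.

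ABCA4, the retinoid transporter of photoreceptor outer segments, had 962 to 1037 CPM in foveal and 1746 to 2562 in perimacular retina. The RPE/choroid libraries had 290, 267, 518 and 453 CPM at the fovea against 118, 171, 124 and 320 at the perimacula, higher at the fovea in each eye although the groups overlapped between animals. The interaction was -2.21 (standard error 0.38, adjusted p = 0.00206). The highest RPE/choroid level of ABCA4, 518 CPM, was in the rod-marked library. Without the 3 marked RPE/choroid libraries the ABCA4 value was -2.37 (adjusted p = 0.00292, edgeR). PDC, the photoreceptor protein phosducin, had the largest negative value of the genes named for their size, -3.41 (standard error 0.72, adjusted p = 0.00637). Its RPE/choroid levels were 24.8, 15.8, 47.6 and 9.49 CPM at the fovea and 11.3, 2.14, 2.42 and 5.45 at the perimacula, with the highest in the rod-marked library. Without that library and both Schwann-marked ones the PDC value was -4.04 (adjusted p = 0.000844), while without replicate 3 as a whole it was no longer called.

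Of 16 complement genes tested, 3 were called, beside 16.8% of all genes, among them the membrane regulators CD46, negative at -0.63 (adjusted p = 0.0117), and CD59, positive at 0.40 (adjusted p = 0.0362). The median value of the list was -0.40 beside 0.01 over all genes tested. CD59 lost its call without any 1 of 11 of the 16 libraries, whereas CD46 lost its call without replicate 1, 3 or 4 as a whole (adjusted p up to 0.106) and without the 3 marked RPE/choroid libraries (adjusted p = 0.0685).

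**Figure D2:**
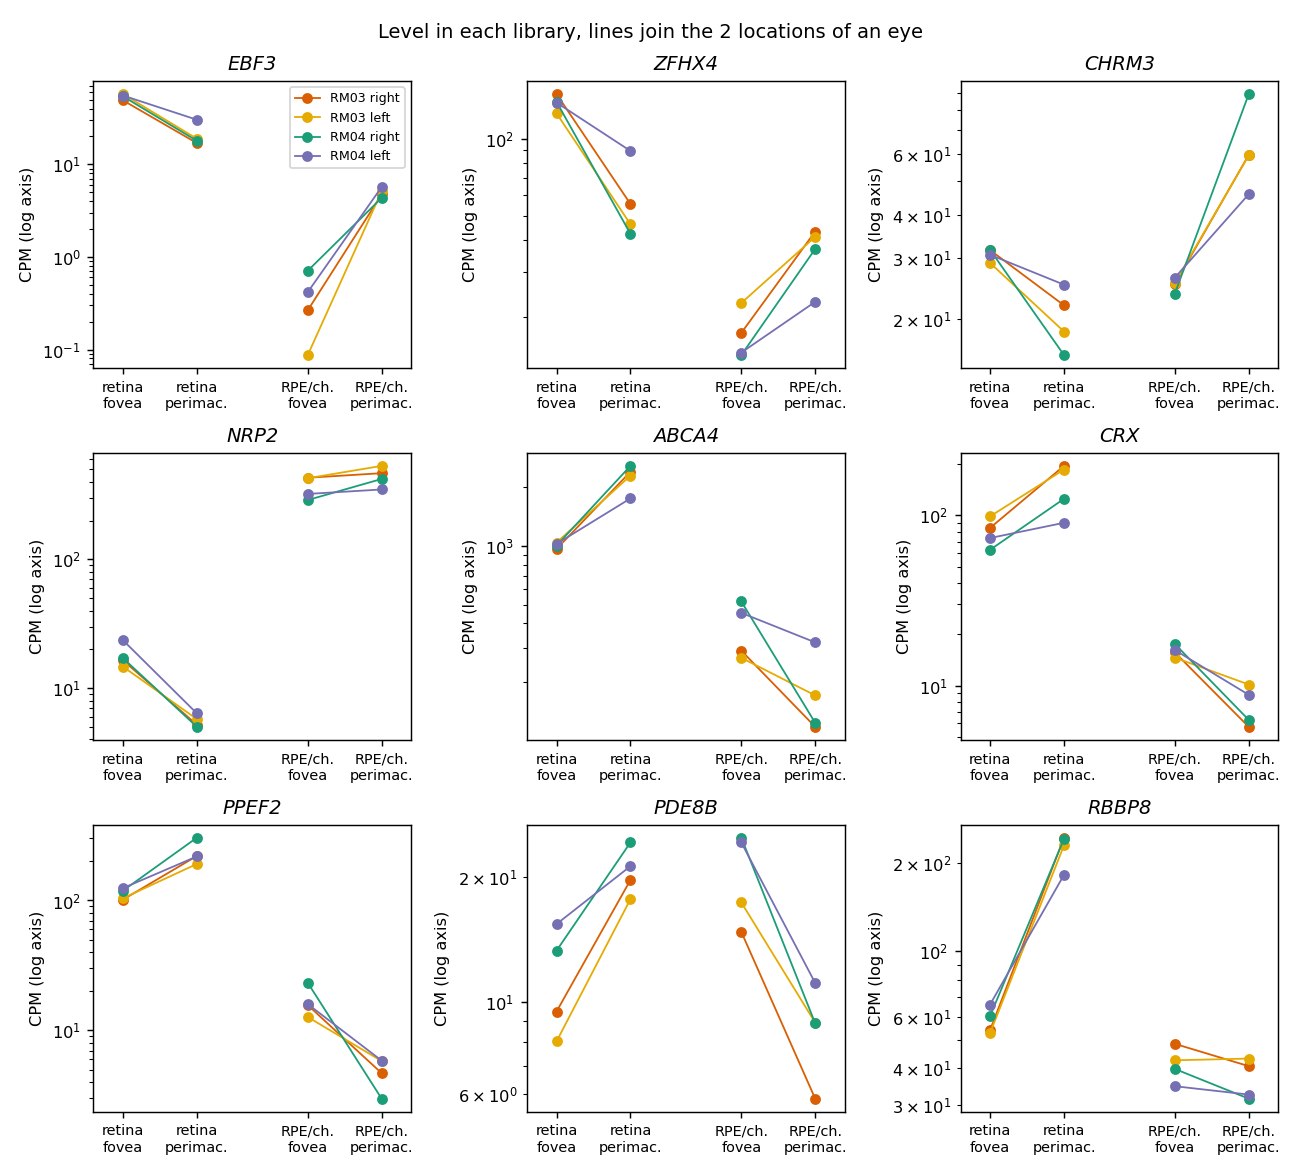
Levels of 9 genes in all 16 libraries, in CPM on log axes, with a colour for each eye and a line joining the perimacula and fovea of an eye. EBF3, ZFHX4 and CHRM3 slope down from fovea to perimacula in retina and up in RPE/choroid, and CRX, PPEF2, PDE8B and ABCA4 slope the other way, while NRP2 and RBBP8 change mainly in retina.

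For several of the largest interactions the retina change was called and the RPE/choroid change was not. RBBP8, a DNA end-resection factor, had 54.0, 52.8, 60.2 and 65.9 CPM in foveal and 244, 229, 241 and 182 in perimacular retina, and between 31.5 and 48.4 CPM in all RPE/choroid libraries. Its retina change was 3.82-fold and the interaction -2.10 (standard error 0.17, adjusted p = 3.21e-05). NRP2, a co-receptor for semaphorins and VEGF, had 16.4, 14.7, 17.1 and 23.5 CPM in foveal and 5.19, 5.74, 5.0 and 6.36 in perimacular retina. Its levels in RPE/choroid were 288 to 429 CPM at the fovea and 348 to 531 at the perimacula, which overlapped, and the interaction was 1.96 (standard error 0.24, adjusted p = 0.000318). AHNAK2 and ANGPTL2 had interactions of 1.93 and 2.01, with retina changes of 2.82-fold and 2.95-fold and RPE/choroid log2 changes of -0.43 and -0.44 that were not called. SPNS3, a sphingolipid transporter family member, had an interaction of -2.61 (adjusted p = 0.00047), with 4.75 to 14.9 CPM in foveal and 16.6 to 69.7 in perimacular retina. NDST4 (2.05, adjusted p = 0.0447) lost its call without any 1 of 11 of the 16 libraries.

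For other called genes the change in RPE/choroid was the larger. CACNB2, a subunit of voltage-gated calcium channels, had 12.1, 9.92, 20.1 and 13.8 CPM in foveal and 5.59, 4.11, 5.0 and 8.03 in perimacular RPE/choroid, against 122 to 144 and 151 to 178 CPM in retina. Its RPE/choroid change was 2.45-fold and its interaction -1.55 (standard error 0.28, adjusted p = 0.00266). SLAIN1, a microtubule-associated protein, had 13.4 to 16.6 CPM at the fovea and 4.74 to 8.70 at the perimacula of the RPE/choroid, while its retina change was 0.02 (standard error 0.16), and its interaction was -1.21 (adjusted p = 0.00422). The transcription factor TFAP2B, an amacrine and horizontal cell gene in retina, had 81.0 to 98.9 CPM in foveal and 85.3 to 114 in perimacular retina. In RPE/choroid it had 0.743, 1.15, 0.841 and 1.53 CPM at the fovea and 3.26, 1.98, 3.53 and 4.86 at the perimacula, and its interaction was 1.55 (standard error 0.28, adjusted p = 0.00312). TBX3, a T-box factor of the developing eye, rose 1.80-fold at the foveal RPE/choroid with an interaction of -0.95 (adjusted p = 0.00818). CXCL14, a chemokine, had 58.1 to 106 CPM in foveal and 12.4 to 58.9 in perimacular RPE/choroid, and its interaction was -2.25 (adjusted p = 0.00934). CXCL14 lost its call without replicate 3 or 4 as a whole (adjusted p up to 0.0832, edgeR). It also lost it without the 3 marked RPE/choroid libraries (adjusted p = 0.0635).

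A further group with large RPE/choroid changes was high in the same libraries as the Schwann cell genes. MBP, a structural protein of myelin, had 1724 and 652 CPM in the perimacular RPE/choroid libraries of replicates 1 and 4, and 90.6 and 98.6 in those of replicates 2 and 3. All 10 Schwann cell genes tested had positive interactions, with a median of 2.88, and 5 were called, beside 9.04% of all genes called positive, among them DRP2, MBP, PMP2 and S100B. DRP2 and MBP lost their calls without any 1 of 8 and 12 of the 16 libraries. Without the rod-marked library 2 were called. Without the perimacular RPE/choroid libraries of replicates 1 and 4, the median was -0.31 and 1 gene was called in each direction. SFRP1, a secreted Wnt inhibitor with the largest value of the genes named for their size, 6.39 (standard error 1.58, adjusted p = 0.0151), had 293, 2.75, 2.60 and 61.2 CPM in perimacular RPE/choroid and 1.64 to 6.96 at the fovea. Without the perimacular RPE/choroid library of replicate 1 its value was 3.99 and not called (adjusted p = 0.0598), and without replicates 1 and 4 of that group it was 1.32 (adjusted p = 0.205). In retina SFRP1 had 16.4, 13, 26.4 and 28.4 CPM at the fovea and 3.62, 4.40, 5.82 and 6.65 at the perimacula, and these groups did not overlap.

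RELN, AATK and MAPK8IP1 showed the same libraries. RELN, the extracellular signal reelin, had 356, 7.04, 5.16 and 72.2 CPM in perimacular RPE/choroid, AATK had 119, 15.1, 18.4 and 39.9, and MAPK8IP1 had 230, 33.2, 33.4 and 76.3. Without the perimacular libraries of replicates 1 and 4 their interactions moved from 4.18, 2.48 and 1.96 to 0.08, 0.95 and 0.53. RELN and AATK were then not called (adjusted p = 0.921 and 0.0763), and MAPK8IP1 was (adjusted p = 0.029). Without the 3 marked RPE/choroid libraries MAPK8IP1 had 0.51 and was not called (adjusted p = 0.0527, edgeR). RELN, AATK and MAPK8IP1 lost their calls without any 1 of 14, 6 and 12 of the 16 libraries. UGT8, which makes the galactolipid of myelin, had 80.8, 7.54, 9.73 and 16.7 CPM in that group against 5.14 to 6.86 at the fovea, and it stayed called at 1.96 without both libraries (adjusted p = 0.0116). PMP2, a myelin lipid carrier, also changed in retina, with 51.7, 37.3, 3.20 and 3.64 CPM at the fovea and 0.262 to 0.365 at the perimacula. The foveal levels were higher in both eyes of RM03 than in both eyes of RM04. Its interaction was 11.56 (adjusted p = 0.00258) and 6.31 without the Schwann-marked libraries (adjusted p = 0.00433). Whether nerve tissue in the punch accounts for the other genes of this group was not tested.

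**Figure D3:**
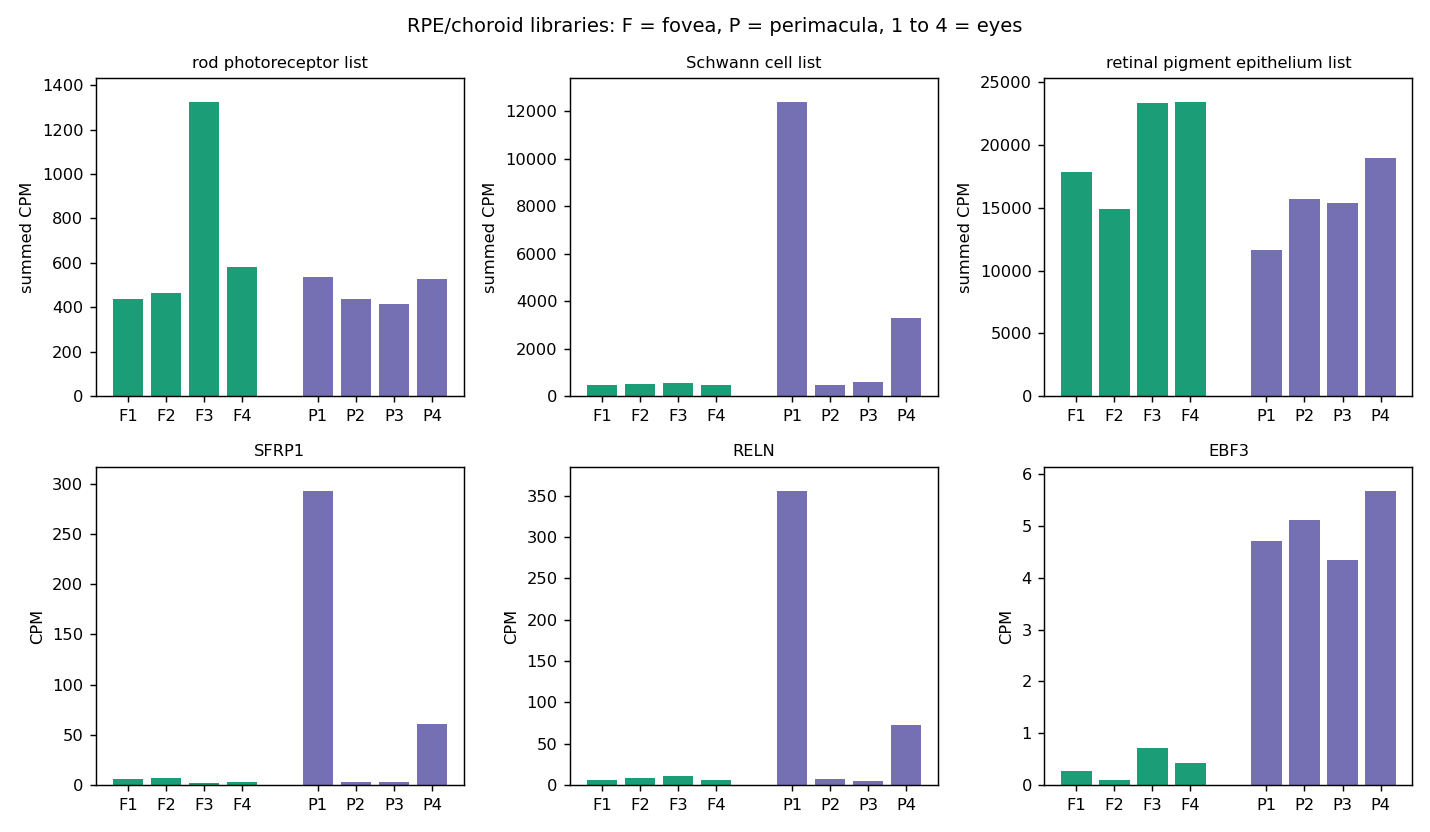
Bars give the summed CPM of the rod, Schwann cell and RPE gene lists and the CPM of SFRP1, RELN and EBF3 in the 8 RPE/choroid libraries, F for fovea and P for perimacula with the replicate number, on axes from 0. SFRP1 and RELN stand out in P1 and P4 as the Schwann cell list does, whereas EBF3 is between 4.34 and 5.68 CPM in all 4 perimacular libraries.

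The lists of cell type and pathway genes are read beside all genes tested, of which 9.04% were called positive and 7.78% negative, with a median of 0.01. All 12 rod genes tested had negative values, with a median of -2.73, but 3 were called, CNGB1, GNB1 and SLC24A1, against 8 by DESeq2. Their median change was -1.62 in retina and 1.11 in RPE/choroid. CNGB1, a subunit of the rod light-gated channel, had 263, 321, 413 and 415 CPM in foveal retina against 765, 813, 1300 and 765 at the perimacula. The RPE/choroid libraries had 11.5, 11, 58.1 and 20.7 CPM against 11.5, 7.85, 8.58 and 14.8, and its interaction was -2.45 (adjusted p = 0.00601). The fit has 1 spread per gene for both tissues, so that the spread among the RPE/choroid libraries also enters the error of the retina change. Without the rod-marked library the median rod change in RPE/choroid was -0.31, and 3 of the 12 were called. Without the Schwann-marked libraries that median was 2.065, and 3 were called. Without the 3 marked libraries it was 0.57, and 9 of the 12 were called, all negative. RDH12, a photoreceptor retinol dehydrogenase, had 60.2 CPM in the rod-marked library and 8.51 to 13.8 in the other foveal RPE/choroid ones. Without the rod-marked library its interaction went from -2.49 to -1.55 and stayed called (adjusted p = 0.0203, edgeR). RDH12 lost its call without any 1 of 7 other libraries.

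Of 12 cone genes 0 were called by edgeR and 0 by DESeq2, and 1 had an unadjusted p under 0.05. Their median changes were 0.65 in retina and 0.82 in RPE/choroid, and without the rod-marked library these were 0.61 and 0.0, with an interaction median of 0.66 and 1 gene called, positive. The cone arrestin ARR3 had 731 to 919 CPM in foveal and 593 to 707 in perimacular retina, and in RPE/choroid 54.7 CPM in the rod-marked library against 2.25 to 22.1 in the others. The 16 ganglion cell genes had a median of 0.85, and EBF1, EBF3, GAP43, NRN1 and RBPMS were called, all positive, beside 9.04% of all genes. Without the rod-marked library 3 of the 16 were called, and without the Schwann-marked libraries 3, with a median of 0.39. NRN1, the neurite growth protein neuritin, had 230, 250, 251 and 254 CPM in foveal and 84.5, 86.9, 76.0 and 151 in perimacular retina, with an interaction of 1.86 (standard error 0.41, adjusted p = 0.00828). GAP43, a growth cone protein, had an interaction of 1.21 (adjusted p = 0.00916). EBF1 and RBPMS lost their calls without any 1 of 4 and 13 of the 16 libraries. Of 11 bipolar cell genes 0 were called by edgeR or DESeq2, and 0 had an unadjusted p under 0.05, while without the 3 marked libraries 1 was called in each direction. Of 10 genes of Mueller glia and astrocytes, HES1, RLBP1 and TRPM3 were called negative, and 2 of the 10 without the 3 marked libraries. Of 12 amacrine and horizontal cell genes, TFAP2B was called positive and the glycine transporter SLC6A9 negative. Of 6 melanocyte genes, the pigment enzyme TYRP1, which the RPE list also holds, was called negative, and it lost its call without the Schwann-marked libraries (adjusted p = 0.0519).

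RLBP1 encodes the retinaldehyde carrier of both Mueller glia and RPE cells, and RDH10 a retinol dehydrogenase of the same cells. RLBP1 had 167, 195, 138 and 143 CPM in foveal and 478, 580, 526 and 280 in perimacular retina. In RPE/choroid it had 1558, 1218, 3010 and 3018 CPM at the fovea and 611, 1049, 1487 and 2241 at the perimacula, higher at the fovea in each eye. Its interaction was -2.25 (standard error 0.50, adjusted p = 0.00896). RDH10 fell at the foveal retina, with 20.3 to 24.6 CPM against 45.1 to 76.5, and its interaction was -2.37 (adjusted p = 0.00682). Without replicate 3 as a whole neither was called. Of 14 genes of retinoic acid synthesis, breakdown and binding, RDH10 and the receptor RARB (-0.93, adjusted p = 0.0195) were the 2 called. Among all genes tested the share called was 16.8%. RARB lost its call without the Schwann-marked libraries (adjusted p = 0.0529) but was called without the 3 marked RPE/choroid libraries (adjusted p = 0.0413, edgeR). CYP26A1, which breaks down retinoic acid, had 12.55 to 18.3 CPM in foveal and 0.201 to 4.02 in perimacular retina, and its interaction of 3.33 did not pass (standard error 1.38, adjusted p = 0.115). In RPE/choroid its level followed the animal, with 43.4 to 53.6 CPM in RM03 and 2.90 to 10.8 in RM04.

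Of 14 RPE genes tested, 5 were called negative, beside 7.78% of all genes, and 0 positive, and 3 were called negative without the 3 marked RPE/choroid libraries. The median was -0.91, with a median change of -0.25 in retina and 0.66 in RPE/choroid. Besides CRX these were OTX2, BEST1, ITGB8 and TYRP1. OTX2, a transcription factor of photoreceptors, bipolar cells and RPE, had 304, 194, 224 and 297 CPM in foveal and 93.1, 176, 114 and 203 in perimacular RPE/choroid, and its interaction was -1.42 (standard error 0.33, adjusted p = 0.0111). RPE65 had 4987, 3254, 8183 and 8042 CPM against 1558, 2790, 4217 and 6171 in RPE/choroid, higher at the fovea in each eye. Its interaction of -0.93 did not pass the test (standard error 0.50, adjusted p = 0.229). The summed level of the 14 genes was 14952 to 23441 CPM at the fovea and 11659.9 to 19015 at the perimacula of the RPE/choroid, with the lowest in the Schwann-marked library of replicate 1. BEST1 and ITGB8 lost their calls without any 1 of 5 and 2 libraries.

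**Figure D4:**
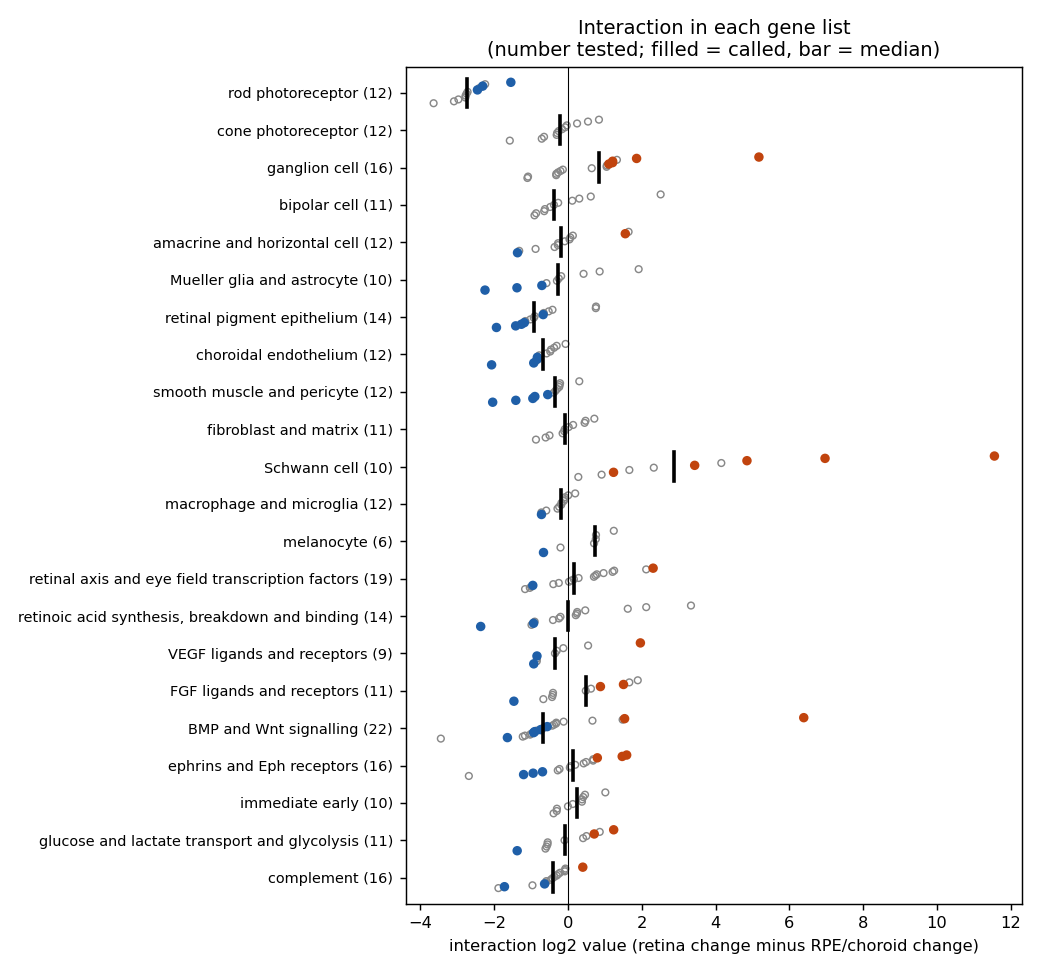
Interaction log2 values of the genes in 22 lists, a point for each gene tested, filled where called (orange positive, blue negative), with a bar at the list's median. FOXI3 is counted in its list but not drawn. The rod genes lie below 0 and the Schwann cell genes above 0 throughout, and the called genes of the RPE, endothelium and smooth muscle lists are all negative.

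All 12 endothelial genes had negative values, with a median of -0.68, and CLDN5, KDR, PECAM1 and TEK were called, beside 7.78% of all genes called negative. PECAM1, a junction protein of endothelium, had 394, 493, 502 and 402 CPM in foveal and 272, 297, 283 and 313 in perimacular RPE/choroid, and 7.89 to 13 CPM in retina. Its interaction was -0.83 (standard error 0.18, adjusted p = 0.00743). KDR, the main VEGF receptor, had 251, 293, 465 and 435 CPM against 191, 248, 264 and 275 in RPE/choroid and 242 to 292 against 345 to 367 in retina, lower at the foveal retina and higher at the foveal RPE/choroid in each eye. Its interaction was -0.93 (standard error 0.19, adjusted p = 0.00526). CLDN5 lost its call without any 1 of 12 of the 16 libraries. The summed level of the 12 genes was 2263 to 3514 CPM at the foveal and 1758 to 2817 at the perimacular RPE/choroid, and 363 to 418 against 467 to 488 in retina.

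Of 12 smooth muscle and pericyte genes, ACTA2, ACTG2, MYH11, PDGFRB and RGS5 were called, all negative, beside 7.78% of all genes, and the median was -0.36. Without the 3 marked RPE/choroid libraries ACTA2 and ACTG2 were the 2 called. ACTA2, smooth muscle actin, had 2589, 2932, 2451 and 1994 CPM in foveal and 1716, 1329, 1208 and 1241 in perimacular RPE/choroid. In retina it had 6.59 to 8.53 CPM against 7.93 to 14.3, and its interaction was -1.41 (standard error 0.21, adjusted p = 0.000973). MYH11, smooth muscle myosin, had 2249 to 3985 CPM against 1397 to 1829 in RPE/choroid, with a retina change of -0.03 and an interaction of -0.95 (adjusted p = 0.0284) that was lost without any 1 of 5 libraries. Of 11 fibroblast genes 0 were called by edgeR, with 1 at an unadjusted p under 0.05 and 1 called by DESeq2, and 1 was called without the Schwann-marked libraries. Of 12 macrophage genes 1 was called, the growth factor receptor CSF1R, which lost its call without any 1 of 9 libraries and without the Schwann-marked ones (adjusted p = 0.076).

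Among 9 VEGF ligands and receptors, NRP2 was called positive and KDR and NRP1 negative, beside 9.04% and 7.78% of all genes. Without the Schwann-marked libraries 1 was called in each direction. NRP1 had 5.24 to 6.42 CPM in foveal and 8.58 to 10.0 in perimacular retina, so that the 2 neuropilins changed in opposite directions within retina. NRP1 had an interaction of -0.84 (standard error 0.20, adjusted p = 0.0134). It lost its call without the Schwann-marked libraries (adjusted p = 0.0557) but was called without the 3 marked RPE/choroid libraries (adjusted p = 0.0387, edgeR). VEGFA itself had 234, 214, 465 and 471 CPM in foveal and 85.7, 138, 156 and 264 in perimacular RPE/choroid, and 183 to 259 against 131 to 248 in retina. Its interaction of -0.84 did not pass (standard error 0.38, adjusted p = 0.143).

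Ephrins and Eph receptors guide axons by repulsion. Of 16 tested, EFNA1, EFNA3 and EPHB1 were called positive and EFNA5, EPHA2 and EPHA3 negative, beside 9.04% and 7.78% of all genes, with a median of 0.13. Without the 3 marked RPE/choroid libraries 2 were called in each direction. EFNA1 had 11.5, 9.25, 7.16 and 7.17 CPM in foveal and 3.18, 3.67, 2.90 and 3.97 in perimacular retina, against 11 to 16.1 and 15.3 to 17.1 in RPE/choroid. Its interaction was 1.59 (standard error 0.23, adjusted p = 0.000866). EFNA3 had 8.62 to 11.1 CPM against 4.54 to 6.52 in retina and 1.5 to 2.81 against 3.08 to 3.58 in RPE/choroid, so that it was opposite in each eye, with an interaction of 1.47 (standard error 0.27, adjusted p = 0.00308). EPHA2 and EPHA3 fell at the foveal retina by 1.02 and 0.78 on the log2 scale, and their interactions were -1.20 and -0.69 (adjusted p = 0.00608 and 0.00384). EPHB1 lost its call without any 1 of 12 libraries.

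Of 22 BMP and Wnt genes, 7 were called, beside 16.8% of all genes, and 5 of these were negative, with a median of -0.68. Without the Schwann-marked libraries 2 of the 22 were called, both negative. Without the 3 marked RPE/choroid libraries edgeR called 0, with 10 at an unadjusted p under 0.05 and a median of -0.84. DESeq2 was run on all 16 libraries, where it called 9. FZD7, a Wnt receptor, had 0.230 to 0.485 CPM in foveal and 0.398 to 1.20 in perimacular retina, and its interaction was -1.64 (adjusted p = 0.014). FZD4 had 5.11 to 6.41 CPM against 7.59 to 9.35 in retina and an interaction of -0.56 (adjusted p = 0.0187). CHRD, a BMP antagonist, had 6.79 to 11.7 CPM against 1.71 to 5.76 in retina and an interaction of 1.53 (adjusted p = 0.0315). BMP2, BMPR1B, CHRD and FZD5 lost their calls without any 1 of 12, 10, 9 and 5 libraries. Of 11 FGF genes, FGF11 and FGF12 were called positive, beside 9.04% of all genes, and FGFR3 negative. FGF11 and FGF12 lost their calls without any 1 of 8 and 5 libraries, and without the Schwann-marked libraries (adjusted p = 0.0944 and 0.0906). FGFR3 had an interaction of -1.47 (standard error 0.31, adjusted p = 0.00627). Of 19 transcription factors of the retinal axes, ZFHX4 and TBX3 were the 2 called by the interaction, beside 16.8% of all genes, and the retina change was called for 9, beside 28.3%. Without the perimacular retina library of replicate 4 the interaction called 8, of which 6 were positive. FOXI3 was listed at 0 in all 8 RPE/choroid libraries, and no value is given for it.

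SLC16A3, which exports lactate from glycolytic cells, had 29.1, 46.1, 52.2 and 52.3 CPM in foveal and 8.42, 15.3, 15.4 and 20.4 in perimacular retina, and 16 to 40.3 against 13.4 to 32.1 in RPE/choroid. Its interaction was 1.24 (standard error 0.30, adjusted p = 0.0133). SLC16A3 lost its call without the Schwann-marked libraries (adjusted p = 0.0538, edgeR) and without the 3 marked RPE/choroid libraries (adjusted p = 0.0762). SLC16A1, the transporter of the apical RPE membrane, had 251, 184, 412 and 391 CPM in foveal and 80.6, 137, 119 and 261 in perimacular RPE/choroid, and 141 to 147 against 171 to 198 in retina. Its interaction was -1.38 (standard error 0.36, adjusted p = 0.0202). Of 11 genes of glucose and lactate transport and glycolysis tested, the only other call was PFKM, a muscle-type phosphofructokinase, at 0.71 (adjusted p = 0.00623). Among all genes tested the share called was 16.8%. Of 10 immediate early genes 0 were called by edgeR or DESeq2, and 2 had an unadjusted p under 0.05.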

How the data were processed

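Poly-A-selected RNA was sequenced on an Illumina HiSeq4000. The authors quantified the reads of each lane against Mmul_8.0.1 with Salmon 0.13 and collapsed transcripts into genes with tximport, so that the deposited values, headed TPM, are estimated counts scaled for transcript length. A lane used here sums to between 7932259 and 13848029. Values were added over the 5 lanes of a library and rounded. Each set lists 19432 entries, and 10 repeat an identifier. Genes were tested with edgeR 4.0.16 (quasi-likelihood, TMM, filterByExpr at a minimum count of 10, R 4.3.3) over the 16 libraries, with the macaque as a covariate, and p-values were adjusted over the 15964 genes. DESeq2 1.42.0, the package named in the study's methods, was an alternative. A standard error is the log2 value divided by the root of its F statistic, and 1 spread per gene serves both tissues.

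Genes were named by rule. Among called genes with unique symbols and at least 3 log2 CPM (prior count 2) in each tissue, these were the 12 largest values of each sign that had that sign in 4 of 4 eyes, the 6 of each sign with the largest opposite changes, and the 6 of each sign with the larger change in RPE/choroid. Members of 22 lists were also named, whatever their level and whether called or not. All were chosen with earlier results of these data known. List members whose symbol several entries carry were left out, since their reads can be split. Some listed genes were not analysed here, and a few others are not reported here. The files' build was not given with its sequence, so that no coordinates or sequences are printed.

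The replicate numbers pair the samples, because the same eye gave all 4 libraries of a number. Deviations from the group means, over 8419 genes, correlated on average by 0.61 between locations of an eye and 0.40 between locations of fellow eyes. Between tissues these values were 0.21 and 0.20, so that eye and animal were not told apart there. Between animals the values were -0.50 within a tissue and -0.20 between tissues. Centring on the group means pulls values between animals below 0. The alternatives were another normalization, other filters, covariates and blocks, each flow cell alone, added locations, and leaving out libraries. Within each flow cell alone the interaction called 2514 and 2215 genes. The analysis used Python 3.11.15 and matplotlib 3.10.9.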

Additional observations from a re-analysis of the deposited data

Results flagged for a closer look

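The change from perimacula to fovea differed between retina and RPE/choroid for 2685 genes by the test of the difference itself (edgeR interaction). Among the genes named for their size, those also called in each tissue, in opposite directions, were CHRM3, with an interaction of 1.93 on the log2 scale, CRX with -1.94, PDE8B with -2.09 and PPEF2 with -2.83.

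Dixon's test for a library far from the other 3 of its group was applied to 172 groups of 4 values, and 6 groups held such a library, where chance gives about 1 in 20. In foveal retina these were AATK in replicate 1 at 39.2 CPM, AHNAK2 in replicate 2 at 486 CPM and SLAIN1 in replicate 3 at 24.1 CPM, each the lowest of its group. In perimacular retina they were CNGB1 in replicate 3 at 1300 CPM, the highest, and CXCL14 in replicate 4 at 18.9 CPM, the lowest. In perimacular RPE/choroid it was LPIN1 in replicate 1 at 215 CPM, the highest and in a Schwann-marked library. Their causes were not tested.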

How the results depend on the processing

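Over 35 alternative settings, 111 genes gave 3881 values, of which 3366 kept their call and sign, 513 lost the call and 2 reversed. The 2 were DRP2 without the Schwann-marked libraries (-0.66) and without the rod-marked library as well (-0.87). Of the 111 genes, 50 were called under every setting. With the eye as a replicate block the interaction called 2541 genes and the RPE/choroid test 120, and with the eye as a block within each tissue 585 genes were called in RPE/choroid and 652 interaction calls had the larger change there. DESeq2 called 1651 positive and 1990 negative interactions and 916 genes in RPE/choroid, with 623 interaction calls larger there. Without a covariate the interaction called 1687 genes (926 positive, 761 negative) and the RPE/choroid test 86, with 223 larger there. With the macaque fitted within tissue these last 2 counts were 728 and 659. With the peripheral libraries added there were 953 positive calls, 42 RPE/choroid calls and 190 larger there.

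Chosen after seeing the data, leaving out both Schwann-marked libraries gave 1696 interaction calls, 810 positive. Leaving out the rod-marked library as well gave 1295, with 587 positive, 708 negative, 78 in RPE/choroid and 242 larger there. Leaving out 1 library or 1 eye gave 745 to 3260 interaction calls, 399 to 1792 positive and 346 to 1553 negative, with the fewest without replicate 3 as a whole. Across the same settings, 2670 to 4797 genes were called in retina, 16 to 322 in RPE/choroid, 369 to 1257 opposite in every eye and 76 to 476 larger in RPE/choroid. Apart from the settings' own loss of libraries, the causes were not tested. Of 2416 genes under 0 log2 CPM in RPE/choroid, 118 were called, or 4.88%, and the part of depth in this was not tested.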
